A study of Saccharomyces cerevisiae with 24 samples.

Results

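The comparison described here set budding yeast lacking RPH1 against WT yeast 3 h after a move from rich to minimal medium. It rests on 4 of the 24 RNA sequencing libraries of the series, 2 labelled rph1Δ and 2 labelled WT, which were chosen by their labels and not by any measured value. All strains are CEN.PK, a laboratory strain of Saccharomyces cerevisiae. Cells were in log phase in YPL medium, were washed in SL medium and were then cultured in SL medium, a minimal medium, for 1 h or 3 h, while the 0 h cells stayed in YPL. The groups used below are WT and rph1Δ at 0 h, 1 h and 3 h, together with set2Δ and the histone mutant H3K36A (genotype HHT1:K36A,HHT2:K36A) at 3 h, each with 2 libraries. The labels do not say whether the libraries of a group came from separate cultures, so p-values here speak of the spread between libraries alone, which may be technical. That spread was estimated over all 24 libraries and not from the 4 compared.

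Rph1 is a JmjC domain demethylase that takes methyl groups off lysine 36 of histone H3, the residue that Set2 methylates and that the K36A mutation replaces. It also has zinc fingers that bind AGGGG elements, and it is known as a repressor of the DNA photolyase gene PHR1 and, in growing cells, of autophagy genes. Phosphatidylcholine synthesis through Cho2 and Opi3 uses the methyl donor S-adenosylmethionine, as histone methylation does, and the title of the series names both processes. The question of this comparison is how transcript levels in minimal medium depend on the demethylase.

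RPH1 (YER169W, chrV:523369-525759 in sacCer3) had counts of 726 and 563 in the WT libraries at 3 h and of 1 and 1 in the rph1Δ libraries, so the deletion is visible in both. The rph1Δ libraries also carried the transcripts of another mating type. HMRA1, the silent-locus copy of the a1 gene, whose sequence is also that of the a1 gene of MATa cells, had counts of 79 and 118 in WT and 0 and 0 in rph1Δ. Set against the limit of 3 counts over the pair of libraries, that is at least 74.5-fold lower. MF(ALPHA)1 (chrXVI:193648-194145), which encodes the alpha-factor pheromone of alpha cells, had counts of 9 and 9 in WT and of 10107 and 9177 in rph1Δ. The 7 a-specific genes summed to 1494 to 1506 counts in the WT libraries and to 375 to 478 in the rph1Δ libraries. The 4 alpha-specific genes summed to 246 to 276 counts in WT and to 10044 to 11120 in rph1Δ. MATALPHA1 and MATALPHA2 had 0 counts in all 4 libraries. Their silent-locus copies HMLALPHA1 and HMLALPHA2 each summed to 0 counts in WT, and to 2 and 3 in rph1Δ. The treatment of reads shared between copies is unknown, so these counts do not show whether the genes were expressed. The labels give no mating type. Genotype and mating type cannot be told apart in these libraries, and the part of mating type in each result below was not tested.

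**Figure D1:**
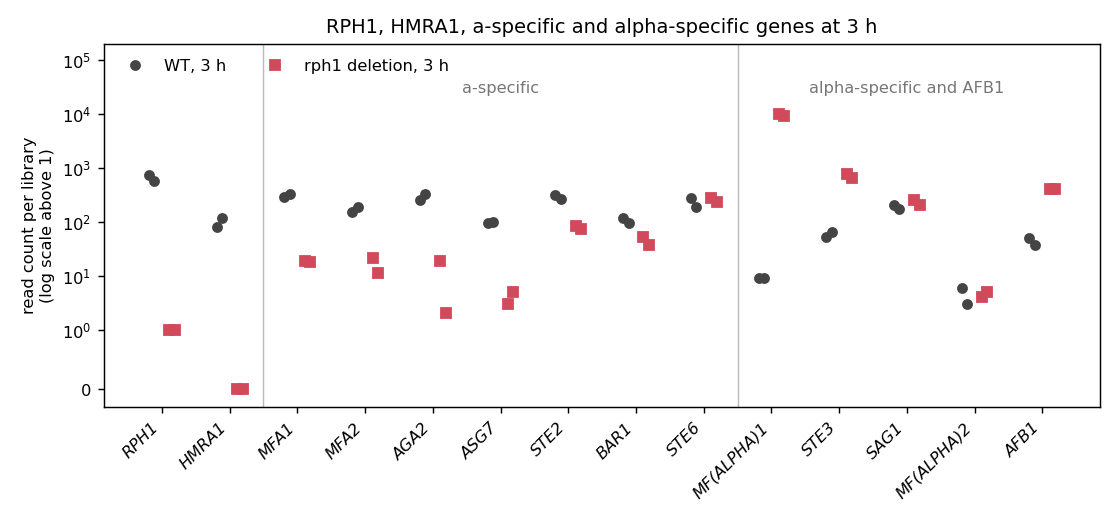
Read counts in each 3 h library (circles, WT; squares, rph1Δ; 2 libraries each) for RPH1, HMRA1, the 7 a-specific genes, the 4 alpha-specific genes and AFB1, on a log axis above 1. RPH1 and HMRA1 fall to 1 and 0 counts in rph1Δ, MF(ALPHA)1 rises to between 9177 and 10107, and STE6, SAG1 and MF(ALPHA)2 overlap between genotypes.

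The mating type difference at 3 h was partial. Levels are given as CPM, read counts scaled to the TMM-adjusted size of each library, and fold changes as log2 values ± SE of rph1Δ over WT, with adjusted p from edgeR. A gene is called, and said to rise or fall, at an adjusted p under 0.05 over all 6503 genes tested. Of the 7 a-specific genes 6 fell. They were the a-factor pheromone genes MFA1 (-4.24 ± 0.24) and MFA2 (-3.57 ± 0.30), the agglutinin subunit gene AGA2 (-4.96 ± 0.34), ASG7 (-4.73 ± 0.36), the alpha-factor receptor gene STE2 (-2.10 ± 0.17) and the protease gene BAR1 (-1.44 ± 0.25). STE6, the exporter of a-factor, had 48.3 and 31.8 CPM in WT and 39.8 and 36.5 CPM in rph1Δ, and was not called (-0.06 ± 0.18, adjusted p = 0.829). Among the alpha-specific genes MF(ALPHA)1 rose by 9.87 ± 0.18 and the a-factor receptor gene STE3 rose by 3.42 ± 0.15, from 8.91 and 10.8 CPM to 107 and 105 CPM. The alpha-agglutinin gene SAG1 (0.09 ± 0.14) and MF(ALPHA)2, with counts of 9 in all in each genotype, were not called. At 0 h all 7 a-specific genes fell and all 4 alpha-specific genes rose, where 2.41% of all genes tested rose and 2.41% fell. The difference was partial at 1 h too, when 6 of the 7 a-specific genes fell. Of the 4 alpha-specific genes 2 rose and 1 fell at 1 h, where 5.90% of all genes rose and 9.27% fell. For no a-specific gene was the difference at 3 h called as different from that at 1 h. The difference at 3 h was smaller than that at 0 h for STE2 by 2.84, for STE6 by 2.84 and for BAR1 by 1.52 on the log2 scale, and for SAG1 it was lower by a log2 difference of -3.24, each called as an interaction term, as were 6.77% of all genes.

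STE2 and STE6 are shown because 1 of these a-specific genes stayed lower at 3 h and the other did not, while their operator sequences are alike. In the windows below, from the R64 assembly (sacCer3) and RefSeq annotation, capitals mark a match to a search pattern for the start of the operator that Mcm1 and the alpha2 repressor bind. The pattern is CATGT, then TT after 2 free letters, then CC after 1 free letter, and it was chosen after the data were seen. It overlaps no other motif searched. Searched on both strands from 250 bases before to 50 after each gene's start, it lay in 3 of 7 a-specific promoters and in 0.301% of all 5979 promoters.
STE2 (chrVI:82350-82383, minus strand): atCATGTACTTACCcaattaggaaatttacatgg
STE6 (chrXI:46476-46509, minus strand): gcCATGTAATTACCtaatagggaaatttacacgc
The match in the STE2 window and that in the STE6 window are descriptions of sequence and say nothing of what was bound.

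Of the 6503 genes tested at 3 h, 754 rose and 1066 fell in rph1Δ, or 28.0% in all (11.6% higher, 16.4% lower). A fit of the 4 libraries compared alone called 540 higher and 512 lower. With scaling by library totals, which moved the median of all genes by 0.11, the balance turned to 1410 higher and 497 lower. Most changes were small, since 59 of the called genes were at least 2-fold higher and 52 at least 2-fold lower. Total counts of the 4 libraries ran from 6950652 to 7677684. The median log2 fold change of all genes tested was -0.03.

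Gene length moved with this difference and also with the difference between the WT replicates. With the genes tested split by exonic length into 4 equal groups, 25 rose and 349 fell among the shortest (51 to 531 bases), and 465 rose and 61 fell among the longest (1776 to 14733 bases). Across 5053 genes with a mean of at least 20 CPM, the Spearman correlation of exonic length with the log2 ratio was 0.60 for rph1Δ over WT and 0.57 for WT replicate 1 over WT replicate 2, against 0.10 for the rph1Δ replicates. The same correlation was 0.44 for rph1Δ over WT replicate 1 alone and 0.64 for rph1Δ over WT replicate 2 alone. For rph1Δ over WT it was 0.42 at 1 h and 0.17 at 0 h. At 3 h it was -0.22 for rph1Δ over set2Δ and -0.19 for rph1Δ over H3K36A. These are descriptions across genes that share libraries. Counts of the WT replicates differed by a chi-square of 12.8 per degree of freedom, and those of the rph1Δ replicates by 2.72. A second fit, added after these values were seen, took a smooth trend with log2 length off each library. It called 600 genes higher and 677 lower (19.6%; 9.23% higher, 10.4% lower), of which 935 were called in the same direction by both fits. Without WT replicate 2 the first fit called 149 higher and 399 lower, and without WT replicate 1 it called 943 and 1281. Results are therefore given below with the length-trend values, and "in both fits" means called in the same direction with and without the trend. List counts at 0 h and 1 h are from the first fit alone.

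**Figure D2:**
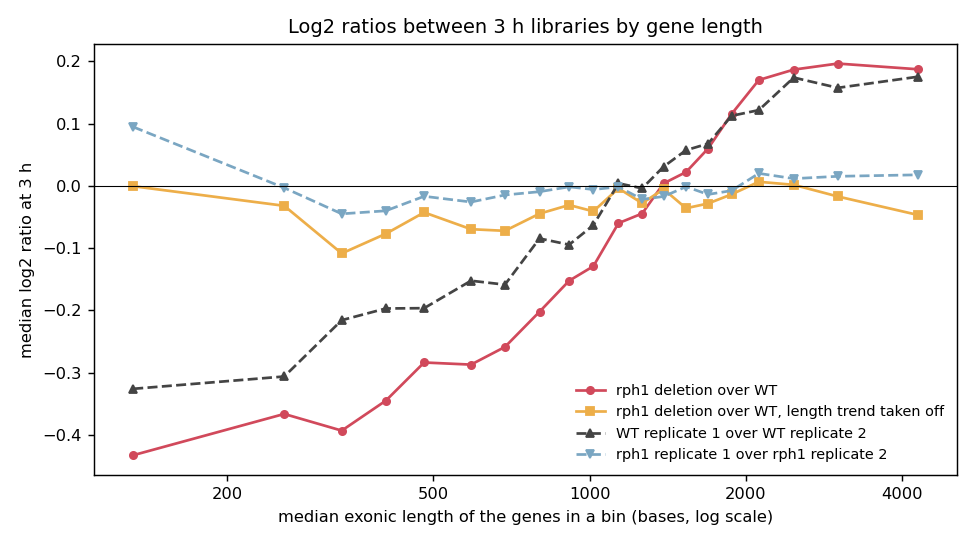
Median log2 ratio between 3 h libraries in 20 bins of genes ordered by exonic length (x axis in bases, log scale), for genes with a mean of at least 20 CPM. The ratio of rph1Δ to WT and that of the WT replicates to each other both climb with length, while the rph1Δ replicates and the fit with the trend taken off lie nearer to 0 at both ends.

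Of 6 genes known as targets of Rph1, ATG29 was the gene called higher in both fits. In the first fit 3 of the 6 rose and 0 fell (median 0.19), where 11.6% of all genes rose. At 0 h 2 rose and 0 fell (median 0.46), where 2.41% of all genes rose. At 1 h 1 rose and 0 fell (median 0.03), where 5.90% rose. ATG29 (YPL166W, chrXVI:237338-237979), a subunit of the scaffold that starts autophagosome formation, had 37.5 and 35.5 CPM in WT and 61.5 and 61.3 CPM in rph1Δ. The log2 fold change was 0.75 ± 0.15 (adjusted p = 0.0011), or 0.95 with the length trend off. ATG29 overlaps the gene YPL165C, and the treatment of shared reads is unknown from the sources. ATG9, a membrane protein of autophagy, rose from 112 and 108 CPM to 150.1 and 134 CPM (0.37 ± 0.09), but was not called with the trend off (0.16, adjusted p = 0.162). PHR1 had 64.7 and 72.1 CPM in WT and 79.6 and 90.2 CPM in rph1Δ. Its change of 0.31 ± 0.11 (adjusted p = 0.0369) was not called with the trend off (0.22, adjusted p = 0.135) or without WT replicate 2 (0.37, adjusted p = 0.0798), WT replicate 1 (0.23, adjusted p = 0.177) or rph1Δ replicate 2 (0.22, adjusted p = 0.264). ATG7, which encodes the E1-like enzyme of autophagy, ATG8, whose product coats the forming membrane, and ATG14, a subunit of a lipid kinase complex, had values of 0.08 ± 0.10, -0.05 ± 0.09 and -0.36 ± 0.16 and were not called. ATG8, one of the shorter genes, was called higher with the trend off (0.24, adjusted p = 0.0221), the opposite sign. For ATG14 the difference at 3 h was lower than that at 0 h by a called interaction (-1.07).

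Promoters of 5 of these targets are shown because AGGGG is the element that the zinc fingers of Rph1 bind. Within 250 bases before and 50 after the gene start, on either strand, AGGGG lay in 4 of the 6 target promoters and in 21.7% of all 5979 promoters. It lay in 27.9% of promoters of genes called higher and in 22.4% of those of genes called lower. With the length trend off these shares were 27.7% and 20.3%. The sequences below run from 5' to 3' on the gene's strand, from R64 (sacCer3), with AGGGG in capitals. ATG14 and ATG7, which were not called, have none in this window, and ATG14 is shown as an example.
PHR1 (chrXV:1066589-1066888, plus strand): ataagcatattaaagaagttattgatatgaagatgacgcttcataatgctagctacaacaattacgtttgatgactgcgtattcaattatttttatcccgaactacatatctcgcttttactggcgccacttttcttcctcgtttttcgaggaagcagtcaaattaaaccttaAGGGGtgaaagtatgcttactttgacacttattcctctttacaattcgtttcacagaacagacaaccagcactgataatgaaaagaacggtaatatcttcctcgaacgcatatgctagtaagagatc
ATG29 (chrXVI:237088-237387, plus strand): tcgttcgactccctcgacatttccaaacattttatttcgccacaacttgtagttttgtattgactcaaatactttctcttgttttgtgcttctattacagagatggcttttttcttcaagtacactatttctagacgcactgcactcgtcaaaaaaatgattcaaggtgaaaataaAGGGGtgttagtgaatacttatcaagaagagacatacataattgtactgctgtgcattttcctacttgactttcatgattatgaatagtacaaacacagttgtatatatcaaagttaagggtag
ATG9 (chrIV:184675-184974, plus strand): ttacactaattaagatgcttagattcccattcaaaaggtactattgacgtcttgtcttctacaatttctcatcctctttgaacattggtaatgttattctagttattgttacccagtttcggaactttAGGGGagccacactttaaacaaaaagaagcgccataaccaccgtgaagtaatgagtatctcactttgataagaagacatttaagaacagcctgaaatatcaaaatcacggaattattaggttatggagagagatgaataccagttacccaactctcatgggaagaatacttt
ATG8 (chrII:80682-80981, minus strand): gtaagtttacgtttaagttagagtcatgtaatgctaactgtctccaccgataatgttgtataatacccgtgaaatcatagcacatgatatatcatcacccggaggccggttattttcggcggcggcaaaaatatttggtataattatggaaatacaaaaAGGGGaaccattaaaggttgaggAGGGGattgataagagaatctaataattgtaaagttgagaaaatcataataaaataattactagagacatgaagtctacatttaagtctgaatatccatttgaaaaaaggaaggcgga
ATG14 (chrII:494066-494365, minus strand): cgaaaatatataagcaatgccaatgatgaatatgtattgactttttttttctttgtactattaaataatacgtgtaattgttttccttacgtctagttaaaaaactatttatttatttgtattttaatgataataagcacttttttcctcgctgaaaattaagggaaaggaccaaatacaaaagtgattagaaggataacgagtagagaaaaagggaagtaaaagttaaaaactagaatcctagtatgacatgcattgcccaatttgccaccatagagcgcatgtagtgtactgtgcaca
PHR1, ATG29 and ATG9 hold the element 1 time each and ATG8 2 times, so its presence and a call at 3 h did not go together in every gene. The share of promoters with a match describes these letters, and no binding was measured.

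Among the genes of histone demethylation and the H3K36 pathway, 4 of 15 rose and 2 fell, with 3 and 2 in both fits. The JmjC paralog GIS1, a regulator of genes used after glucose runs out, had 59.9 and 44.8 CPM in WT and 81.4 and 82.8 CPM in rph1Δ (0.65 ± 0.17, and 0.45 with the trend off). It was not called without WT replicate 2 (adjusted p = 0.156). IOC2, a subunit of an Isw1 chromatin remodelling complex, rose by 1.01 ± 0.19, from 40.6 and 22.1 CPM to 60.8 and 65.8 CPM. RCO1, a subunit of the Rpd3S deacetylase that reads H3K36 methylation, rose by 0.67 ± 0.14. RPD3, the catalytic subunit, was lower by -0.23 ± 0.08, a call that was lost without either rph1Δ replicate, without WT replicate 1 and with scaling by library totals. The genes that fell were RPH1 itself and RPD3. The other gene called higher was SET2 (0.41), which encodes the H3K36 methyltransferase and overlaps YJL169W, and it was not called with the trend off (0.25) or without any 1 of the 4 libraries.

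Genes that make phosphatidylserine and methylate phosphatidylethanolamine to phosphatidylcholine were lower in rph1Δ. Of 31 phospholipid synthesis genes 9 fell and 4 rose, with a median log2 fold change of -0.16 against -0.03 for all genes, while with scaling by library totals 5 fell and 6 rose, with medians of -0.03 and 0.08. With the trend off 10 fell and 1 rose (median -0.14), and 8 fell in both fits. Without WT replicate 2, 8 fell and 2 rose. CHO2 (chrVII:802440-805049), the enzyme that adds the first methyl group to phosphatidylethanolamine, had 384 and 426 CPM in WT and 267 and 257 CPM in rph1Δ. The groups lay well apart, and the change was -0.63 ± 0.09 (adjusted p = 2.28e-05), or -0.83 with the trend off. OPI3 (chrX:572315-572935), which adds the remaining methyl groups, had 852 and 862 CPM in WT and 579 and 649 CPM in rph1Δ (-0.48 ± 0.10, adjusted p = 0.00106; -0.28 with the trend off). CHO1 (chrV:207644-208474), phosphatidylserine synthase, had 262 and 274 CPM in WT and 199.5 and 183 CPM in rph1Δ (-0.49 ± 0.08, adjusted p = 0.00024; -0.34 with the trend off). CHO2, CHO1 and OPI3 were the lowest called members of the list, and each had every rph1Δ library below every WT library. The share of all genes tested whose libraries separate in this way is not given here, so the separation adds no support to the calls. PSD1, the mitochondrial decarboxylase between them in the pathway, was lower by -0.43 ± 0.14, with 59.1 and 79.9 CPM in WT and 52.8 and 49.95 CPM in rph1Δ. The call for PSD1, which overlaps YNL170W, was lost without WT replicate 2 or either rph1Δ replicate.

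Other phospholipid genes fell in both fits. They were the choline transporter gene HNM1 (-0.37), the inositol synthase gene INO1 (-0.36), the cholinephosphotransferase gene CPT1 (-0.34) and the CDP-diacylglycerol synthase gene CDS1 (-0.31). INO4, a subunit of the activator of phospholipid genes, was lower by -0.45 and not called with the trend off (-0.20). With scaling by library totals, PSD1, INO1, CPT1 and CDS1 were not called. INO1 was also not called without WT replicate 1 or rph1Δ replicate 1, CPT1 without WT replicate 2, and CDS1 and INO4 without rph1Δ replicate 1. The phospholipase gene PLB1 rose in both fits (0.50 ± 0.10, from 213 and 198 CPM to 282 and 301 CPM). The phosphatidate phosphatase gene PAH1 (0.33), the decarboxylase gene PSD2 (0.44) and the lysophospholipase gene NTE1 (0.51) rose in the first fit and were not called with the trend off. In the choline kinase route, which ends with CPT1, the other genes CKI1 (0.19) and PCT1 (0.23) were not called. At 0 h 0 of the 31 rose and 1 fell, where 4.83% of all genes were called, and at 1 h 3 rose and 1 fell, where 15.2% were called. CHO2 itself was at 0.19 at 0 h and -0.11 at 1 h, not called at either time. The difference at 3 h was lower than that at 0 h for CHO2 (-0.82 ± 0.12, adjusted p = 0.000136) and than that at 1 h (-0.52, adjusted p = 0.00796), also with the length trend off.

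**Figure D3:**
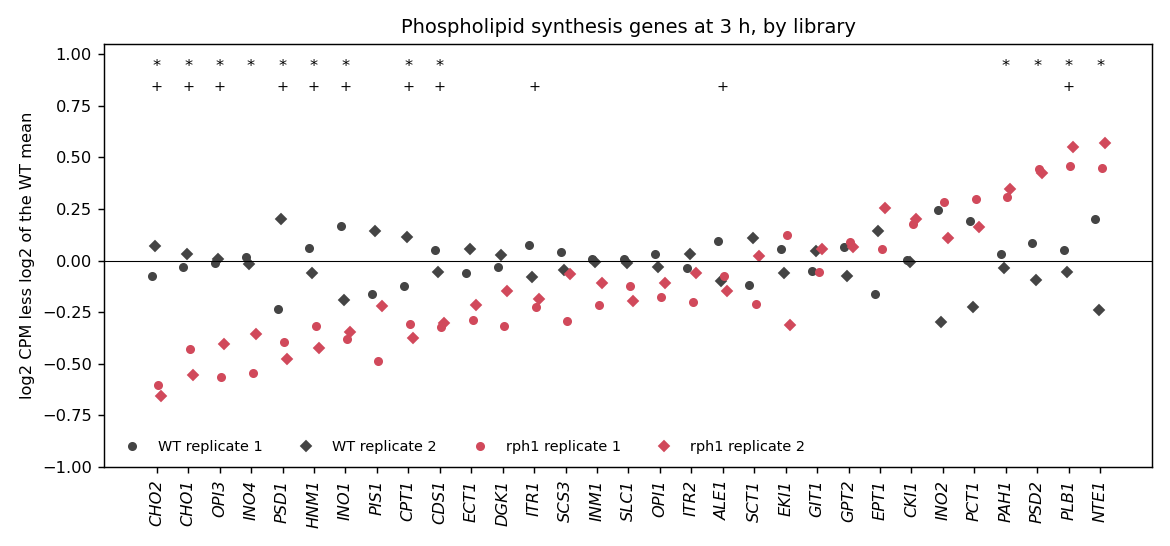
Log2 CPM of each 3 h library less the log2 of the WT mean for the 31 phospholipid synthesis genes, ordered by fold change (black, WT; red, rph1Δ; circles, replicate 1; diamonds, replicate 2). Stars mark genes called by edgeR and plus signs those called with the length trend off; CHO2, CHO1 and OPI3 lie at the low end with both rph1Δ libraries below both WT libraries.

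Of 13 fatty acid synthesis genes 3 fell and 0 rose, in both fits. That is 23.1% called, where 28.0% of all genes tested were called and 16.4% fell. FAS1 and FAS2 encode the subunits of fatty acid synthase. FAS1 had 2562 and 2421 CPM in WT and 1842 and 1823 CPM in rph1Δ (-0.44 ± 0.07), and FAS2 changed by -0.36 ± 0.08. With the trend off they were at -0.69 and -0.61, since both genes are long. ACB1, the acyl-CoA binding protein gene, changed by -0.56, or by -0.23 with the trend off.

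Genes of glycolysis and hexose uptake were lower at every time. At 3 h 16 of 30 fell and 3 rose (18 and 3 with the trend off, 16 and 3 in both fits), with a median of -0.38 against -0.03 for all genes. At 0 h 19 fell and 2 rose (median -0.93), and at 1 h 16 fell and 1 rose (median -0.39), where 9.27% of all genes fell and 5.90% rose. HXK2, the hexokinase used in glucose-grown cells, had 79.6 and 78.4 CPM in WT and 35.2 and 38.9 CPM in rph1Δ (-1.09 ± 0.11, adjusted p = 6.7e-08). Most of this difference was not there at 0 h, since the interaction of 3 h less 0 h was -1.0 and called. TPI1, triose phosphate isomerase, had 3287 and 3969.6 CPM in WT and 2029.7 and 2222 CPM in rph1Δ (-0.77 ± 0.10). The enolase gene ENO2 (-0.63), the aldolase gene FBA1 (-0.58), the phosphoglycerate kinase gene PGK1 (-0.58), the mutase gene GPM1 (-0.54), the dehydrogenase gene TDH3 (-0.52) and the alcohol dehydrogenase gene ADH1 (-0.37) also fell. The pyruvate kinase gene CDC19 (-0.13) and the pyruvate decarboxylase gene PDC1 (0.05) were not called at 3 h, although they fell at 0 h by 1.42 and 0.90 on the log2 scale. For both, the difference at 3 h was less than at 0 h by a called interaction (1.28 and 0.94). ENO1, ENO2, TDH2 and TDH3 have near-identical copies, and reads shared between copies may be split.

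The hexose transporter genes HXT7 (-1.48 ± 0.22) and HXT6 (-1.18 ± 0.33) fell in rph1Δ at 3 h and at 0 h, and HXT7 was not called at 1 h (0.15). HXT7 had 40.1 and 40.7 CPM in WT and 13.7 and 15.3 CPM in rph1Δ. They are near-identical copies, so their separate levels are uncertain. The calls for HXT6, HXT5 and ADH1 were lost without WT replicate 2, where 10 of the 30 fell and 2 rose, and that for ADH1 also with scaling by library totals. The genes that rose were PDC6, a minor pyruvate decarboxylase (0.69 ± 0.09, from 1064 and 891 CPM to 1516 and 1637 CPM), PFK26, which makes the allosteric activator of phosphofructokinase (0.58 ± 0.07), and the transporter gene HXT5 (0.31 ± 0.08). PDC6 fell at 1 h (-1.02), so its direction changed between times. Against set2Δ and H3K36A at 3 h, rph1Δ had 21 and 18 of the 30 genes higher and 2 and 1 lower, where 20% and 18.3% of all genes were higher and 17.5% and 15.6% lower.

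**Figure D4:**
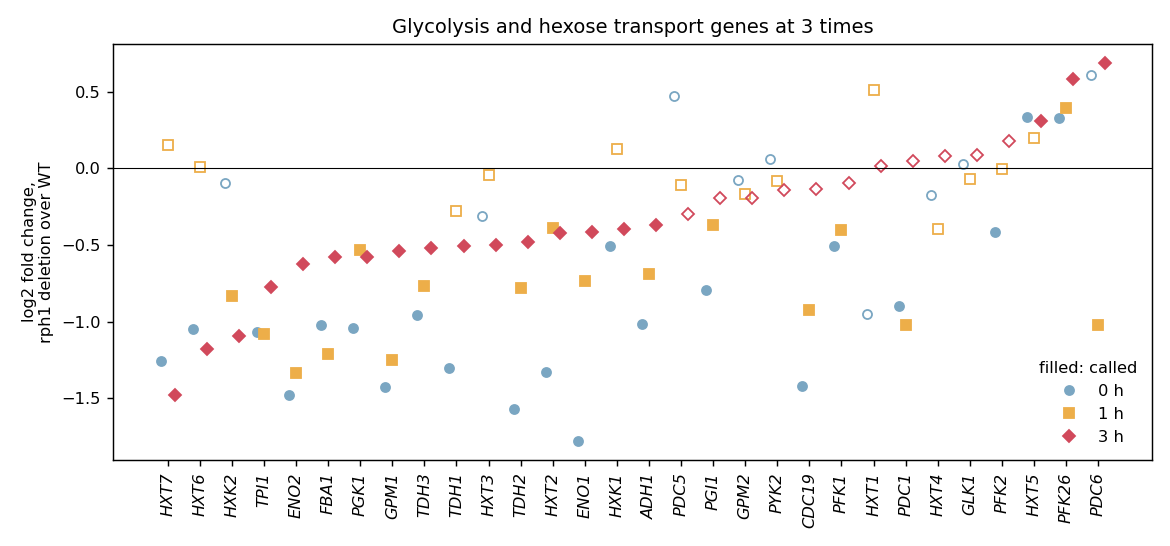
Log2 fold change of rph1Δ over WT at 0 h (circles), 1 h (squares) and 3 h (diamonds) for 30 genes of glycolysis and hexose transport, ordered by the 3 h value, with filled points for called values. Most enzymes lie below 0 at all 3 times, while CDC19 and PDC1 are called at 0 h and 1 h and not at 3 h.

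Genes used on lactate and in gluconeogenesis were mixed, with 7 of 28 higher and 5 lower (2 and 6 with the trend off, 1 and 3 without WT replicate 2). ADH2, the alcohol dehydrogenase that oxidises ethanol, had 6495 and 6564 CPM in WT and 3966 and 4220.1 CPM in rph1Δ (-0.67 ± 0.11). FBP1, fructose bisphosphatase, fell by 0.51 and IDP2, an NADP-dependent isocitrate dehydrogenase, by 0.40. Of 38 respiratory chain genes 3 rose and 10 fell, but 8 rose and 3 fell with the trend off, 0 rose and 3 fell without WT replicate 2, and 7 rose and 5 fell with library totals, so the balance of this list was not stable. At 1 h 33 of the 38 fell, with a median of -0.71.

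Ribosomal protein genes were lower, but by less once length was taken into account. Of 81 large subunit genes 67 fell and 0 rose, and of 57 small subunit genes 44 fell and 0 rose, with medians of -0.42 and -0.39. With the trend off 23 and 12 fell and 0 and 2 rose, with medians of -0.16 and -0.15. RPS12 had 509.5 and 517 CPM in WT and 293 and 309 CPM in rph1Δ (-0.77 ± 0.11; -0.52 with the trend off). RPS25A (-0.74), the stalk protein gene RPP1A (-0.76) and RPL41B (-0.83) fell in both fits, of which RPL41B was not called without WT replicate 2 and RPS25A has a near-identical copy. At 0 h 1 of the 81 and 0 of the 57 fell. Of 143 ribosome biogenesis genes 34 fell and 2 rose (33 and 2 with the trend off, 23 and 1 in both fits). The first fit thus called 25.2% of them, where 28.0% of all genes tested were called and 16.4% fell. GAR1, a subunit of H/ACA small nucleolar ribonucleoproteins, fell by 0.70, from 55.5 and 63.4 CPM to 39.0 and 34.0 CPM. LOC1 (-0.61) and RRP8 (-0.58) also fell in both fits, and the helicase genes DBP6 (0.52) and ECM16 (0.42) rose, ECM16 not with the trend off. None of these 4 was called without WT replicate 2. Of 48 translation factor genes 13 fell and 0 rose in each fit, 7 of them in both. The share called, 27.1%, was near the 28.0% of all genes tested. SUI3, the beta subunit of initiation factor eIF2, fell by 0.51 ± 0.08 and SUI1 by 0.47, while TIF11 (-0.47) was not called with the trend off or without WT replicate 2. Without WT replicate 2 the counts were 74 lower for the 138 ribosomal protein genes, 15 lower for ribosome biogenesis and 7 lower for translation factors. With scaling by library totals they were 77 lower and 1 higher, 13 lower and 8 higher, and 6 lower and 4 higher.

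Of 11 histone genes 8 fell, with a median of -0.44, while 2 fell with the trend off, 4 without WT replicate 2 and 5 with library totals. HTZ1, the H2A.Z variant, had 125 and 112 CPM in WT and 82.8 and 71.2 CPM in rph1Δ (-0.62 ± 0.10; -0.36 with the trend off). HHT1 (histone H3) fell by 0.59 and by 0.33 with the trend off, and it has a near-identical copy in HHT2. HTB2 (-0.50) was not called with the trend off. Histone genes are short, with a median exonic length of 399 bases, against 1074 for all genes tested.

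**Figure D5:**
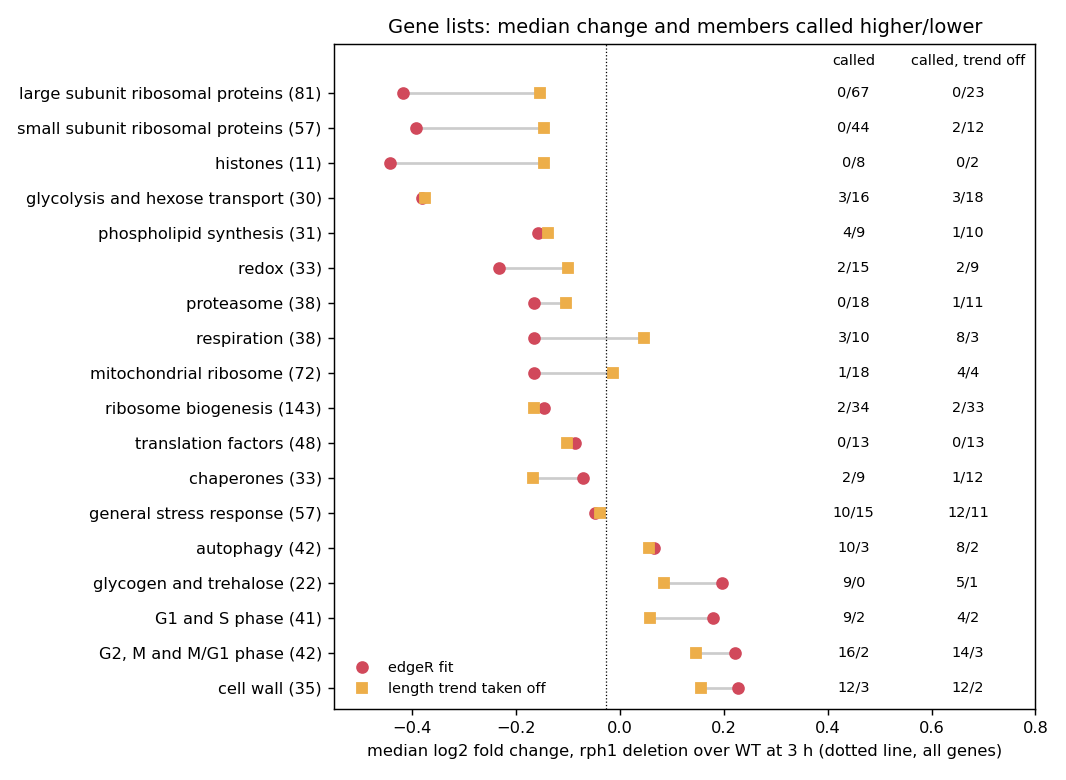
Median log2 fold change of rph1Δ over WT at 3 h for 18 gene lists (number of genes tested in brackets), with edgeR as fitted (circles) and with the length trend off (squares), and the members called higher/lower at the right. Ribosomal protein and histone lists move towards 0 with the trend off, and glycolysis, phospholipid, ribosome biogenesis and cell wall lists move little.

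More cell wall genes and late cell cycle genes rose than fell against WT, where 11.6% of all genes tested rose and 16.4% fell. Of 35 cell wall genes 12 rose and 3 fell (12 and 2 with the trend off, 11 and 1 in both fits), with a median of 0.23. Without WT replicate 2, 4 rose and 2 fell. RLM1 (chrXVI:379120-381150), the transcription factor of the cell wall integrity pathway, had 32.7 and 15.2 CPM in WT and 54.3 and 66.1 CPM in rph1Δ (1.33 ± 0.22, adjusted p = 0.000191). The WT replicates differed by more than 2-fold for RLM1. PIR1, a cell wall protein gene, had 389 and 309 CPM in WT and 617 and 650.2 CPM in rph1Δ (0.86 ± 0.10), and the chitin synthase gene CHS1 rose by 0.61 ± 0.12. UTR2, a chitin transglycosylase gene, fell by 1.39 ± 0.25, from 7.02 and 10.6 CPM to 3.82 and 2.87 CPM. CIS3 (-0.75) and SPI1 (-0.45) were lower and not called with the trend off. At 0 h 0 of the 35 were called, and at 1 h 2 rose and 7 fell. In rph1Δ at 3 h 15 of the 35 were higher than in set2Δ and 11 lower. Set against H3K36A, 11 were higher and 12 lower.

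Of 42 genes of the G2, M and M/G1 phases 16 rose and 2 fell (14 and 3 with the trend off, 14 and 1 in both fits), with a median of 0.22. Without WT replicate 2, 7 rose and 1 fell. EGT2, used in cell separation after division, had 91.3 and 55.6 CPM in WT and 169 and 161 CPM in rph1Δ (1.17 ± 0.19). The transcription factor genes FKH2 (1.03 ± 0.16) and NDD1 (0.83 ± 0.20), which act together at G2/M genes, rose too, and NDD1 was not called without WT replicate 2. CLB2, the main mitotic cyclin gene, had counts of 107 and 73 in WT and of 113 and 87 in rph1Δ and was not called (-0.03). CDC28 (-0.28) and DSE1 (-0.24) were lower. The call for CDC28 was lost with the trend off and without rph1Δ replicate 1, and that for DSE1 was lost without any 1 of the 4 libraries. Of 41 genes of the G1 and S phases 9 rose and 2 fell (4 and 2 with the trend off, 2 and 2 without WT replicate 2). In the first fit 26.8% of this list was called, where 28.0% of all genes tested were called and 11.6% rose. CLN3 (chrI:65778-67520), the first G1 cyclin, had 10.1 and 11.2 CPM in WT and 20.1 and 23.8 CPM in rph1Δ (1.04 ± 0.18, adjusted p = 0.00022). SWI4, a subunit of the SBF factor, rose by 0.65 ± 0.15. MBP1 was at 0.57 and was not called with the trend off or without WT replicate 2. The primase subunit gene PRI2 fell in both fits (-0.46), and RFA2 (-0.31) in the first. At 0 h 0 genes of this list and 1 of the G2, M and M/G1 list were called.

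Genes of glycogen and trehalose metabolism were higher in the first fit, with 9 of 22 called higher and 0 lower, and 5 higher and 1 lower with the trend off. Without WT replicate 2 only 2 were higher, and with library totals 14. GAC1, which targets a phosphatase to glycogen synthase, had 71.8 and 55.6 CPM in WT and 126 and 114 CPM in rph1Δ (0.91 ± 0.18). SGA1 (0.68) and PIG1 (0.59) rose in both fits and were not called without WT replicate 2. At 0 h 9 of the 22 were called higher too. Of 42 autophagy genes 10 rose and 3 fell (8 and 2 with the trend off, 5 and 1 in both fits). The first fit thus called 31.0% of them, near the 28.0% of all genes tested. Beside ATG29 the highest were ATG15, a vacuolar lipase gene (0.69 ± 0.22), and ATG13, a regulator of the Atg1 kinase (0.55 ± 0.15). ATG5 (-0.48), ATG27 (-0.34) and ATG34 (-0.21) were lower. None of these but ATG29 was called in each fit that left out 1 of the 4 libraries, and without WT replicate 2 the list had 1 gene higher and 0 lower.

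Stress genes moved in both directions. Of 57 general stress genes 10 rose and 15 fell (12 and 11 with the trend off, 5 and 7 without WT replicate 2), although AGGGG lay in 36 of their 57 promoters. Of 20 genes of the post-diauxic and stress response 3 rose and 8 fell (4 and 5 with the trend off, 2 and 4 without WT replicate 2). The repressor gene XBP1 had 96.8 and 61.3 CPM in WT and 139 and 146 CPM in rph1Δ (0.85 ± 0.14), and SDS24 rose by 0.59. The small heat shock gene HSP26 had 20707 and 24051 CPM in WT and 13764 and 14732 CPM in rph1Δ (-0.65 ± 0.10), and the membrane protein gene HSP30 changed by -0.74 ± 0.15 after a rise at 1 h (0.86). CRG1 (-0.46) was lower and HBT1 (0.39) higher, neither called without WT replicate 2, and HBT1 not with the trend off. Of 33 chaperone genes 2 rose and 9 fell (1 and 12 with the trend off, 0 and 5 without WT replicate 2), led by HSP26, HSP10 (-0.71) and SBA1 (-0.48), while SSC1 (0.39) and HSF1 (0.40) were higher, both lost without WT replicate 2 and HSF1 also with the trend off. The first fit thus called 33.3% of the chaperone list at 3 h, where 28.0% of all genes tested were called. At 1 h the chaperone list went the other way, with 20 higher and 1 lower. Of 38 proteasome genes 18 fell and 0 rose (11 and 1 with the trend off, 8 and 0 without WT replicate 2, 8 and 1 with library totals). The lowest were PRE9 (-0.51), RPN13 (-0.48) and RPT4 (-0.45), and RPN13 was not called without WT replicate 2. With scaling by library totals the chaperone list had 6 higher and 6 lower and the general stress list 17 higher and 8 lower, so neither direction held there.

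Of 33 redox genes 15 fell and 2 rose (9 and 2 with the trend off, 8 and 1 without WT replicate 2, 10 and 5 with library totals). The mitochondrial thioredoxin reductase gene TRR2 had 280.4 and 341 CPM in WT and 143 and 141 CPM in rph1Δ (-1.13 ± 0.11, adjusted p = 4.43e-08). The cytosolic thioredoxin gene TRX2 had 1000.2 and 1025 CPM in WT and 571 and 622 CPM in rph1Δ (-0.76 ± 0.09), and GPX2, a glutathione peroxidase gene, changed by -0.77 ± 0.17. The response regulator gene SKN7 rose by 0.93 ± 0.16, and GSH1, which makes gamma-glutamylcysteine, rose by 0.38 ± 0.09. GPX2 and GSH1 were not called without WT replicate 2.

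Haploid and pheromone response genes differed beside the mating type genes. Of 28 tested 8 rose and 4 fell (4 and 4 with the trend off, 2 and 2 without WT replicate 2). AGA1, the anchor subunit of a-agglutinin, had 14.7 and 10.1 CPM in WT and 34.8 and 31.3 CPM in rph1Δ (1.41 ± 0.21), PRM2 rose by 1.81 ± 0.43 and FIG2 was at 0.57, not called with the trend off. FUS1, a gene induced by pheromone, had 5.82 and 7.603 CPM in WT and 2.97 and 3.03 CPM in rph1Δ (-1.16 ± 0.29), and FAR1, which arrests cells in G1 on pheromone, changed by -0.61 ± 0.16. At 0 h both rose in rph1Δ, FUS1 by 2.10 and FAR1 by 0.81, so their direction turned between 0 h and 3 h (interactions of -3.26 and -1.42). The 3 h call was lost for FUS1 without WT replicate 2 and for FAR1 without WT replicate 1 or rph1Δ replicate 2. MSG5, a phosphatase gene of the pathway, fell by 0.63.

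Regardless of list, the 14 highest and 14 lowest genes were named by fold change among those called with a standard gene name, a mean of at least 10 FPKM in the higher group and no overlap of libraries, leaving out RPH1 and the mating lists. The highest was AFB1 (chrXII:228908-229582), which encodes a secreted factor of alpha cells that acts on a-factor. It had 8.56 and 6.25 CPM in WT and 56.7 and 65.1 CPM in rph1Δ (3.04 ± 0.20), and it overlaps YLR041W, whose counts went the other way (59 and 56 in WT, 6 and 4 in rph1Δ). Next came COS12 (1.38), TOS7 (1.36), RLM1, DFP4 (1.23), MPT5 (1.22), EGT2, the sensor gene WSC4 (1.17), BNA2 of NAD synthesis (1.15), the meiotic inducer gene IME1 (1.14), SIP5 (1.12), ZDS1 (1.11), DEF1 (1.08) and WHI3 (1.08). WHI3 and MPT5 encode RNA binding proteins. WHI3 had 39.7 and 23.99 CPM in WT and 66.6 and 67.7 CPM in rph1Δ. IME1 had 9.25 and 7.43 CPM in WT and 20.2 and 16.4 CPM in rph1Δ. All 14 were called with the trend off, and 11 without WT replicate 2, where DFP4, IME1 and ZDS1 were not. DFP4 and IME1 were also not called without rph1Δ replicate 1, nor DFP4 without WT replicate 1. MPT5 and BNA2 overlap other genes.

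The lowest were HXT7, SRD1 (-1.40), PHO84 (-1.34), SHH3 (-1.23), TRR2, GTT2 (-1.12), OSI1 (-1.11), HXK2, EGO4 (-1.09), AQY2 (-1.09), PCA1 (-1.06), RRT1 (-1.06), DPC7 (-1.01) and LPX2 (-1.01). PHO84, the high affinity phosphate transporter, had 75.0 and 53.4 CPM in WT and 23.7 and 27.1 CPM in rph1Δ, and it was lower at 0 h too (-1.89). PCA1, a metal transporting ATPase gene that is known to give rise to transcripts from within the gene when Set2 is lost, had 122 and 159.8 CPM in WT and 70.5 and 64.3 CPM in rph1Δ. GTT2, a glutathione transferase gene, had 57.9 and 63.0 CPM in WT and 27.6 and 27.9 CPM in rph1Δ. SHH3, a mitochondrial inner membrane protein gene, had 262 and 319 CPM in WT and 126 and 122 CPM in rph1Δ. Of the 14, AQY2, which overlaps another gene, and RRT1 were not called with the trend off, without WT replicate 2 or without rph1Δ replicate 1. YDL057W, an unnamed reading frame singled out after its values were seen, had counts of 71 and 41 in WT and of 494 and 400 in rph1Δ (2.81 ± 0.17). It was higher at 0 h and 1 h as well (2.09 and 3.41). In the set2Δ libraries its counts were 351 and 353 and in H3K36A 372 and 387, so that the WT libraries stood apart from all 3 mutants.

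At 0 h 157 genes rose and 157 fell in rph1Δ, and at 1 h 384 rose and 603 fell, from other libraries of both genotypes. Of the genes called at 3 h, 125 were called in the same direction at 0 h, which is 6.87% of the 3 h calls and 39.8% of the 0 h calls, and 21 in the opposite direction. At 1 h 449 were called in the same direction, which is 24.7% of the 3 h calls and 45.5% of the 1 h calls, and 47 in the opposite one. The difference at 3 h was itself different from that at 0 h for 440 genes (6.77%), 196 higher (3.01%) and 244 lower (3.75%), and from that at 1 h for 390 genes (6.0%), 228 higher (3.51%) and 162 lower (2.49%). Outside the mating lists, and with a mean of at least 10 FPKM in the higher group, the genes whose difference was most below that at 0 h were DFP2 (-2.62), the phosphogluconate dehydrogenase gene GND1 (-1.42), the NAD kinase gene YEF1 (-1.39) and TRR2 (-1.22). GND1 had 430.2 and 388 CPM in WT and 274 and 281 CPM in rph1Δ at 3 h (-0.56), after being higher in rph1Δ at 0 h (0.86) and lower at 1 h (-1.46). The most above 0 h were SPL2 (1.94), RLM1 (1.42), TOS7 (1.41) and ENO1 (1.36). Against 1 h the lowest were the amino acid permease gene BAP2 (-1.94), LSO1 (-1.68), HXT7 (-1.63) and HSP30 (-1.60), and the highest were JLP1 (1.95), AFB1 (1.94), PDC6 (1.71) and DPI8 (1.64).

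Values against the other mutants at 3 h share the rph1Δ libraries with the comparison to WT, so they are given side by side and not as independent support. Against set2Δ 1302 genes were higher and 1141 lower in rph1Δ (37.6%), and against H3K36A 1187 were higher and 1014 lower (33.8%). CHO2 and CHO1 did not pass the test against either mutant. OPI3 was higher than in set2Δ (0.68) and was at 0.13 against H3K36A, while INO1 was higher than in both (1.88 and 1.19). ATG29 was higher than in set2Δ (0.72) and H3K36A (0.59), and PHR1 was higher by 0.28 and 0.39. TRR2 (-1.21 and -1.34), PCA1 (-1.34 and -1.48) and SRD1 (-1.93 and -1.91) were lower than in both. EGT2, CLN3 and WHI3 were not called against either mutant. RLM1 was called higher against set2Δ (0.56) and not against H3K36A (0.32). Of the genes that rose against WT in both fits 145 of 451 were also higher than in set2Δ and H3K36A, and of those that fell 115 of 484 were also lower than in both. How many of all genes tested were higher, or lower, than in both mutants is not given here. These counts therefore do not tell whether such genes were more common among those called against WT.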

How the data were processed

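RNA sequencing was done on 24 libraries of 12 groups, and the 4 libraries of rph1Δ and WT at 3 h are the subject here. Groups came from the sample labels. The authors deposited raw read counts per gene (whole numbers, 6623458 to 7677684 per library) and FPKM, named so per the file headers, which equal those counts scaled by exonic length and column total in 100% of values within 0.01. Per the submitters' processing notes, cutadapt 1.9.1, HISAT2 2.0.1, HTSeq 0.6.1 and build sacCer3 were used. Neither the strand setting nor the treatment of shared reads is stated there, so levels of overlapping genes and near copies (at least 90% identity over 50% of length) are uncertain.

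From the deposited counts, edgeR 4.0.16 (R 4.3.3) ran its quasi-likelihood test with TMM scaling on all 12 groups, with 12 residual degrees of freedom. The test covered 6503 genes that reached 1 FPKM in 2 or more libraries and left out 623. Calls needed an adjusted p (Benjamini-Hochberg) below 0.05. The test was run on simulated data for this comparison with 6503 genes. It called 72 of 100 genes given a log2 change of 0.5, all 100 given a change of 1, and 8 of 6303 left unchanged. The simulated counts held no length trend and the same spread in all groups, unlike the WT replicates at 3 h. They therefore do not tell how many calls in the real data are false. The length trend (lowess, span 0.5, genes with at least 5 CPM, ribosomal protein genes not used to fit it) was added after seeing the data. Alternatives were scaling by totals or upper quartile, DESeq2 1.42.0, other filters, fewer groups, a replicate block and leaving out each library. The members and lists were chosen with earlier results of these data known. Named genes were RPH1, the mating type and Rph1 target genes, the 14 highest and 14 lowest called genes (10 FPKM or more on average in the higher group, libraries not overlapping), up to 3 called on each side per list and 4 on each side per interaction. Other genes named were chosen after their values were seen, and the operator pattern likewise. Promoters are those of R64, whose coordinates equalled the table's for 6036 of 6048 matched genes. MATA1 and MATA2 were not analysed here.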

Additional observations from a re-analysis of the deposited data

Results flagged for a closer look

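The values below are differences on the log2 scale between the rph1Δ over WT ratio at 3 h and that at an earlier time, each called by an interaction term in edgeR (adjusted p under 0.05) among the genes named in the text. Against 0 h there were 71 such genes, of which 63 were called the same way with the length trend taken off, and against 1 h 50, of which 49 were. Those not called the same way were CHO1, OPI3, RPS25A, TRX2, HSP10, SBA1, DFP2 and MET4 against 0 h and INO4 against 1 h. The 0 h cells were in rich medium and the 3 h cells in minimal medium, and the mating type genes moved between these times too; the part of either in these differences was not tested.

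The difference between genotypes was lower at 3 h than at 0 h for MF(ALPHA)2 (-9.68), FUS1 (-3.26), SAG1 (-3.24), STE3 (-2.85), DFP2 (-2.62), PTR2 (-2.27), UTR2 (-1.59) and FAR1 (-1.42). Smaller drops of this kind were those of GND1 (-1.42), YEF1 (-1.39), TRR2 (-1.22), SRD1 (-1.15), ATG14 (-1.07), HXK2 (-1.0), GTT2 (-0.84) and TAT1 (-0.83). It was lower also for CHO2 (-0.82), LPX2 (-0.81), FBP1 (-0.79), URA10 (-0.73), RPS12 (-0.73), RPP1A (-0.69), BAP2 (-0.65) and MSG5 (-0.63). The list goes on with RPS25A (-0.63), MUP1 (-0.60), IDP2 (-0.59), CPT1 (-0.53), HSP10 (-0.53), TRX2 (-0.51), FAS2 (-0.51) and SBA1 (-0.46). Last in this direction came OPI3 (-0.46), FAS1 (-0.44), SUI3 (-0.44), CHO1 (-0.40), HNM1 (-0.39), PRI2 (-0.39) and RPT4 (-0.37).

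It was higher at 3 h than at 0 h for MFA2 (3.57), STE2 (2.84), STE6 (2.84), SPL2 (1.94), BAR1 (1.52), RLM1 (1.42), TOS7 (1.41) and ENO1 (1.36). Next in this direction were GAC1 (1.29), CDC19 (1.28), MPT5 (1.27), EGT2 (1.25), WHI3 (1.16), FKH2 (1.13), TDH2 (1.09) and CLN3 (1.02). Smaller rises against 0 h were those of DEF1 (1.02), NDD1 (1.01), PIR1 (0.98), PDC1 (0.94), IOC2 (0.90), GPM1 (0.88), SKN7 (0.86) and ENO2 (0.85). The smallest were those of ECM16 (0.84), RCO1 (0.79), GSH1 (0.75), DBP6 (0.71), HSP26 (0.69), ADH1 (0.65), MET4 (0.45) and FBA1 (0.44).

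Set against 1 h, the difference was lower at 3 h for PTR2 (-2.36), BAP2 (-1.94), LSO1 (-1.68), HXT7 (-1.63), HSP30 (-1.60), UTR2 (-1.37), EGO4 (-1.34) and GTT2 (-0.90). Smaller drops against 1 h were those of OSI1 (-0.90), HSP26 (-0.85), CRG1 (-0.80), DPC7 (-0.79), URA10 (-0.78), FUI1 (-0.74), SHH3 (-0.74) and SPI1 (-0.72). Below these in size were HSP10 (-0.66), LPX2 (-0.57), INO1 (-0.56), OPI3 (-0.56), INO4 (-0.55), MUP1 (-0.54), PRI2 (-0.53) and MSG5 (-0.53). The smallest drops were those of CHO2 (-0.52), HHT1 (-0.51), TRX2 (-0.49), RFA2 (-0.42), ATG34 (-0.41), CDS1 (-0.40) and RPT4 (-0.36). Set against 1 h, it was higher at 3 h for MF(ALPHA)1 (2.51), JLP1 (1.95), AFB1 (1.94), PDC6 (1.71), DPI8 (1.64), STE3 (1.44), EGT2 (1.16) and PIR1 (1.10). Smaller rises against 1 h were those of CLN3 (1.08), PDC1 (1.07), GND1 (0.90), CDC19 (0.79), ENO2 (0.71), GPM1 (0.71), XBP1 (0.64) and FBA1 (0.63). The remaining rises were those of BNA2 (0.58), CHS1 (0.57) and IDP2 (0.41).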

How the results depend on the processing

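At 3 h edgeR called 1820 genes (754 higher, 1066 lower). Leaving out 1 library moved this from 548 to 2224: 548 without WT replicate 2 (149 higher, 399 lower), 922 without rph1Δ replicate 1, 1113 without rph1Δ replicate 2 and 2224 without WT replicate 1, with the lone library assumed to vary like the other groups. Fitting only the groups compared gave 1052 (540 higher, 512 lower), and at 0 h 499 in place of 314. Scaling by library totals moved the median of all genes by 0.11 and gave 1410 higher and 497 lower at 3 h, 924 and 384 at 1 h, 246 and 119 at 0 h, 269 and 146 for the difference from 0 h, 777 and 1563 against set2Δ and 657 and 1367 against H3K36A. The difference from 0 h had 248 higher and 186 lower with an FPKM of at least 10, 298 and 210 with only the groups compared and 287 and 205 with DESeq2, and the difference from 1 h had 255 and 110 with only the groups compared. Leaving out 1 library gave 119 to 1182 genes for the difference from 0 h, 226 to 653 for that from 1 h, 155 to 210 at 0 h and 504 to 732 at 1 h. Those from 0 h were 165 and 175 without rph1Δ 3 h replicate 1 and 2, 1182 and 142 without WT 3 h replicate 1 and 2, 119 and 257 without rph1Δ 0 h replicate 1 and 2, and 242 and 152 without WT 0 h replicate 1 and 2. Those from 1 h were 249 and 255 without rph1Δ 3 h replicate 1 and 2, 653 without WT 3 h replicate 1 and 226 without WT 1 h replicate 2. At 0 h they were 161 and 194 without rph1Δ replicate 1 and 2 and 155 without WT replicate 1. At 1 h they were 507 without rph1Δ replicate 1, and 504 and 619 without WT replicate 1 and 2. The longer element TAAGGGG lay in 2.27% of promoters of genes called higher, 2.42% of those called lower and 2.11% of all, where AGGGG lay in 27.9%, 22.4% and 21.7%. ATG8 turned from -0.05 to 0.24 with the length trend off. The replicate block gave 1805 genes at 3 h (751 higher, 1054 lower), and the replicate numbers did not pair the samples (correlation of deviations -0.06). Of 154 called genes named here, the number that lost the call was 3 with DESeq2, 3 with an FPKM of at least 10, 14 with library totals, 22 with the length trend off, 22 with only the groups compared, 8 and 45 without WT replicate 1 and 2, and 29 and 20 without rph1Δ replicate 1 and 2. The cause was not tested for any of these changes.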

Other observations

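Some pyrimidine synthesis and uptake genes were lower in rph1Δ at 3 h. Of 17, 6 fell and 0 rose, or 35.3%, where 28.0% of all genes tested were called and 16.4% fell. In both fits 5 were lower. The median log2 fold change was -0.28 against -0.03 for all genes, and it was -0.15 with the length trend off. With scaling by library totals 4 fell and 0 rose. URA6, the uridylate kinase gene, had 84.8 and 88.9 CPM in WT and 50.02 and 58.1 CPM in rph1Δ (-0.69 ± 0.11). URA10, an orotate phosphoribosyltransferase gene, had 215 and 297 CPM in WT and 165 and 156 CPM in rph1Δ (-0.67 ± 0.12). The groups did not overlap for either, but the share of all genes that separate so is not given, so this adds no support. The uridine permease gene FUI1 (-0.50) and the CTP synthase genes URA7 (-0.38) and URA8 (-0.34) also fell in both fits. CTP is used to make the CDP-linked precursors of phospholipids. The call for FUI1 was lost without rph1Δ replicate 1. That for URA7, which overlaps another gene, was lost with library totals and without rph1Δ replicate 2 or WT replicate 1. At 0 h 0 of the 17 were called.

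Of 25 amino acid and nitrogen permease genes 5 rose and 5 fell, with 2 and 5 in both fits and 0 and 4 without WT replicate 2. The peptide transporter gene PTR2 had 3.77 and 6.25 CPM in WT and 0.99 and 1.12 CPM in rph1Δ (-2.24 ± 0.34). The methionine permease gene MUP1 had 167 and 139 CPM in WT and 105 and 96.1 CPM in rph1Δ (-0.60 ± 0.10), and the permease gene TAT1 (-0.77) also fell. Of 43 genes of sulfur assimilation and methionine, which supply S-adenosylmethionine, 6 rose and 5 fell, or 25.6%, which is no more than the 28.0% of all genes tested. In both fits 2 rose and 1 fell, and without WT replicate 2 the counts were 1 and 2. The methylenetetrahydrofolate reductase gene MET13 (0.65 ± 0.14) and the activator gene MET4 (0.41 ± 0.09) rose in both, and MET13 was not called without WT replicate 2. With scaling by library totals this list had 13 higher and 1 lower.

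Of 24 thiamine and vitamin B6 genes 3 rose and 5 fell (2 and 3 without WT replicate 2). The first fit thus called 33.3% of them, where 28.0% of all genes tested were called. The highest was THI5, a gene of thiamine precursor synthesis (1.03 ± 0.23). It had 14.04 and 16.4 CPM in WT and 27.0 and 35.3 CPM in rph1Δ. Its near-identical copies make its own level uncertain.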
